A study of Mus musculus with 3 samples.

Results

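The genes described here are 9 that write, maintain, erase or read DNA methylation: Dnmt1, Dnmt3a, Dnmt3b, Uhrf1, Tet1, Tet2, Tet3, Mbd1 and Mbd2. They were chosen by symbol, and all 9 were found among the 19381 genes of the deposited table. RNA was sequenced from the digested proximal incisor, labelled incisor mesenchyme, of mice aged 1 month with the genotype Gli1-CreER;Arid1afl/fl;Arid1bfl/fl, called DKO. In these mice a recombinase driven by the Gli1 promoter is switched on by tamoxifen and removes floxed parts of Arid1a and Arid1b, both of which encode members of a chromatin remodeler, the canonical BAF complex. Tamoxifen was injected into the peritoneum at 1.5 mg per 10 g of body weight, and tissue was taken 4 days later. All 3 libraries belong to this group, and all carry both floxed pairs and received tamoxifen. Recombination is limited to cells in which the Gli1 promoter is active, so RNA from cells without it is part of every library. The labels do not say whether the libraries came from separate animals. The errors therefore measure only how far the libraries differ, and that spread could be technical. The levels are those of DKO tissue alone, since mice without the deletion are not analysed here, and nothing below is an effect of the deletion.

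In mammals a methyl group is added to cytosine mainly where it is followed by guanine (CpG). Dnmt3a and Dnmt3b place new methyl groups, while Dnmt1 copies existing ones onto the new strand after replication, guided by Uhrf1, which binds half-methylated CpG sites. Tet1, Tet2 and Tet3 oxidize methylcytosine with alpha-ketoglutarate and iron, a step towards its removal, and proteins with a methyl-CpG binding domain, such as Mbd1 and Mbd2, bind methylated sites and recruit repressors. In the mouse incisor, which grows throughout life, the proximal end holds the stem cells and dividing progenitors in which methylation has to be copied at each division.

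Most annotated starts of these genes held more CpG than the median of all promoter windows, but they were near the median of expressed genes. RefSeq promoter windows on the GRCm38.p6 build, reaching from 250 bases before to 50 bases after a gene start, were matched for 7 members with 12 windows in all. The members without a window were Mbd1 and Mbd2. Of the 12 windows, 11 held more CpG than the median of 7 over all 32851 windows, where the quartiles were 3 and 20. Genes expressed here, with a mean value of 10 or more, had a median of 21 per window, and 7 of the 12 were above that, near an even split. Tet2 had 57, the Dnmt3a windows 46, 47 and 18, Dnmt3b 30, Tet3 22 and Tet1 17. The Dnmt3a windows with 46 and 47 overlap, so they are not independent. In the Dnmt3a window with 46 and the Dnmt3b window, the first 20 bases after the start matched no GENCODE transcript of the gene. Uhrf1 has starts with 12 and 33, and Dnmt1 has starts with 2, 12 and 33. Alternative starts of 1 gene thus spanned the range from CpG-poor to CpG-rich.

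**Figure D1:**
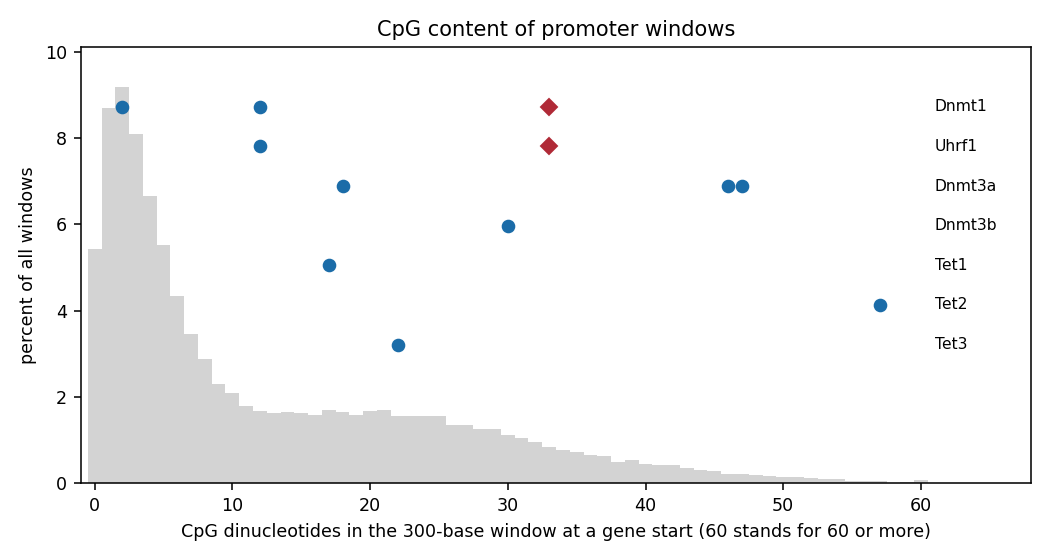
Number of CpG dinucleotides in 300-base promoter windows (x axis), with grey bars for the percent of all 32851 windows (y axis, bars only) and 1 row of points for each of the 7 members matched. Red diamonds are the windows of Dnmt1 and Uhrf1 that hold the E2F-type letters. Only the outermost Dnmt1 window, with 2 CpG, lies below the median of 7.

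The sequences below show the CpG-poor start of Dnmt1 beside the Uhrf1 start, and the letters that both maintenance genes share. The search was for the E2F-type letters TTTCCCGC, TTTCGCGC, TTTGCCGC and TTTGGCGC on both strands, since E2F factors are known regulators of S phase genes. It was chosen after the values were seen, and the 4 forms overlap no other motif searched. Such letters were in 2.26% of all windows and in 3.92% of windows of genes expressed at a mean of 10 or more. Among the 12 member windows they were in 2, one of Dnmt1 and one of Uhrf1. The first line below is the outermost Dnmt1 start (chr9:20959889-20960138, minus strand), with its 2 CpG in capitals. The second is a 30-base stretch of Dnmt1 (chr9:20952824-20952853, minus strand) around the match at -219 from the innermost start, in capitals, and all 30 bases lie in the untranslated part of exon 1 of a GENCODE transcript that starts further upstream. The same window holds TTTGGCGC at 34 bases after that start. The third is the Uhrf1 start with 33 CpG in its window (chr17:56304063-56304312, plus strand, 250 bases), with the match at -185 in capitals.
Dnmt1 outermost start: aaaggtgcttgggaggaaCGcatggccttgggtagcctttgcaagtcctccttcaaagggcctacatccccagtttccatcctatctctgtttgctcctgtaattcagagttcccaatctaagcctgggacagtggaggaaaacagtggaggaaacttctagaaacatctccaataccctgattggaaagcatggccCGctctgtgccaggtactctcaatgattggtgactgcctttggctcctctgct
Dnmt1 first exon: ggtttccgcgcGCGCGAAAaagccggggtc
Uhrf1 start: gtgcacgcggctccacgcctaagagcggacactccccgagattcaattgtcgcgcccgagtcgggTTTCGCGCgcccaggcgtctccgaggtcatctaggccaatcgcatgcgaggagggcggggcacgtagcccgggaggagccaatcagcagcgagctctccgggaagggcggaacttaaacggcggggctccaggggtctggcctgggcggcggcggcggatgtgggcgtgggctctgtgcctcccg
A match is a description of these letters only. The deposited values are sums per gene, so they do not tell which start was used.

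Values are normalized units as deposited, gene-level counts scaled so that the 75th percentile of genes is 44.7 in each library. They are given for replicates 1, 2 and 3 in that order and as mean ± SD. Library totals were 986401, 958773 and 966163. Markers of incisor mesenchyme (Prrx1, Msx1, Dlx5, Pdgfra, Twist1 and Igfbp5) all had means of at least 10, and their summed level was 3342, 4958 and 4954. Igfbp5 was the largest part of that sum, at 1756, 3242 and 3248, and differed most between libraries. Of the 6 markers 5 were lowest in replicate 1, but Msx1 was highest there (271.7, 214.1 and 234.7). Other cells were in the tissue as well. All 7 dental epithelium markers (summed 759.3, 1226 and 941.1), all 6 macrophage markers (810.3, 1096 and 1143) and all 6 endothelial markers (323.5, 338.7 and 450.0) had means of at least 10. Of 4 measured lymphocyte markers 1 did, and of 3 measured neutrophil markers none, with 2 more of each listed and not analysed here. Over all genes, 53.6% reached a mean of 10. Replicate 1 stood apart by its interferon-stimulated genes, whose summed level was 1062 against 196.9 and 200.5 in the others. Odontoblast markers summed to 18120, 9794 and 22960, with Col1a1 the largest part at 9950, 4719 and 13720. Of the 6 odontoblast markers 4 were lowest in replicate 2, while 2, Col1a2 and Ibsp, were lowest in replicate 1. In bulk tissue, fewer cells of a type and less RNA per cell cannot be told apart.

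A mean of at least 10 was reached by 8 of the 9 members, against 53.6% of all genes, and Dnmt3b was the exception. The median of the 9 means was 58.7, against 12.5 over all genes and 41.1 over the 10388 genes that reach a mean of 10. The values give no comparison with another tissue, and the reason for these levels was not tested.

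The maintenance genes were both expressed in every library. Dnmt1 (mm10 chromosome 9, 20907209 to 20959888) was measured at 93.71, 112.2 and 109.5 (105.1 ± 9.97, SD, n = 3). It was lowest in replicate 1, and replicates 2 and 3 lay close together. Uhrf1 (chromosome 17, 56303321 to 56323486) stood at 41.54, 49.26 and 49.34 (46.71 ± 4.48, SD, n = 3), again lowest in replicate 1. The ratio of the deposited values of Dnmt1 to those of Uhrf1 was 2.26, 2.28 and 2.22. Its coefficient of variation of 1.31% was well below those of Dnmt1 (9.49%) and Uhrf1 (9.58%) themselves. It was also below the counting error of Uhrf1 alone, 2.65%, 2.36% and 2.17% if the smallest value is 1 read. A spread this small understates the error of the ratio. The shared movement was that of replicate 1, since without it the log2 ranges of Dnmt1 and Uhrf1 were 0.03 and 0.00.

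Of the de novo enzymes, Dnmt3a was expressed throughout and Dnmt3b was weak. Dnmt3a (chromosome 12, 3806007 to 3914443) stood at 138.7, 162.3 and 165.5 (155.5 ± 14.7, SD, n = 3), lowest in replicate 1 like the maintenance pair. Dnmt3b (chromosome 2, 153649450 to 153687730) stood at 6.554, 5.961 and 7.454 (6.656 ± 0.752, SD, n = 3), lowest in replicate 2 and highest in replicate 3. If the smallest value of a library is 1 read, Dnmt3b rested on 225, 217 and 320 reads. The exact 95% Poisson intervals were then 5.73 to 7.47, 5.19 to 6.81 and 6.66 to 8.32. Those of replicates 2 and 3 share only the stretch from 6.66 to 6.81, and no test of counts was run. For Dnmt1 the intervals were 90.5 to 97.0, 109 to 116 and 106 to 113, and that of replicate 1 did not overlap the others. Intervals cover counting error only.

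The 3 erasers differed in how much they varied between libraries. Tet1 (chromosome 10, 62804570 to 62908996) stood at 160.8, 189.2 and 162.0 (170.7 ± 16.0, SD, n = 3), with replicate 2 above the others. Tet2 (chromosome 3, 133463679 to 133545139) stood at 57.94, 63.05 and 54.97 (58.65 ± 4.08, SD, n = 3), also highest in replicate 2. Tet3 (chromosome 6, 83362373 to 83459084) stood at 106.9, 108.2 and 105.5 (106.9 ± 1.33, SD, n = 3). Tet3 was nearly level, with a coefficient of variation of 1.25%, below its counting error of 1.65%, 1.59% and 1.49% if the smallest value is 1 read.

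Of the readers, Mbd1 was nearly level, and Mbd2 varied about as much as a typical gene. Mbd1 (chromosome 18, 74267605 to 74282732) stood at 45.70, 45.66 and 45.61 (45.66 ± 0.0474, SD, n = 3). Its coefficient of variation, 0.104%, lay below the counting error of 2.52%, 2.45% and 2.26% if the smallest value is 1 read. An SD this small understates the error of Mbd1. Mbd2 (chromosome 18, 70568189 to 70626131) stood at 57.76, 51.12 and 53.16 (54.01 ± 3.40, SD, n = 3), highest in replicate 1, where Dnmt1, Uhrf1 and Dnmt3a were lowest. Its log2 range of 0.17 lay below the median of 0.19 over genes at a mean of 10 or more, and it was 0.06 without replicate 1.

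**Figure D2:**
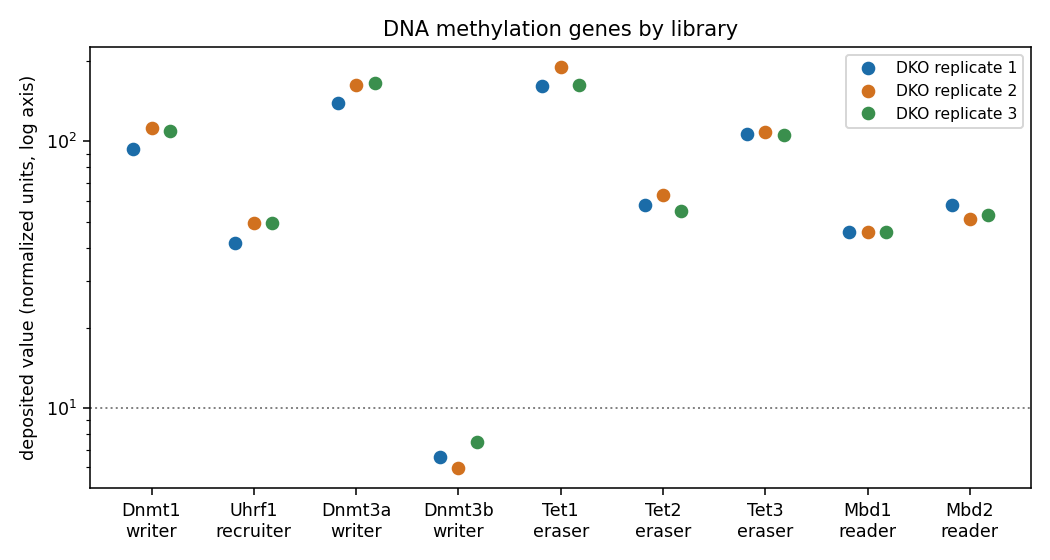
Deposited value in normalized units (log axis) of the 9 genes, with 1 point for each of the 3 DKO libraries and a dotted line at 10. Dnmt3b, at 5.961 to 7.454, is the only gene below the line.

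Because longer transcripts give more reads, members were compared with each other per kilobase of annotated exon. The merged exons of GENCODE M21 cover 3214 bases for Mbd2, 4259 for Uhrf1, 5106 for Dnmt3b, 6703 for Mbd1, 7377 for Dnmt1 and 15457, 16870, 16695 and 16642 for Tet1, Tet2, Tet3 and Dnmt3a. Levels per kilobase were highest for Mbd2 (16.8 ± 1.06, SD, n = 3), followed by Dnmt1 (14.2 ± 1.35), Tet1 (11.0 ± 1.04), Uhrf1 (11.0 ± 1.05) and Dnmt3a (9.34 ± 0.881). Mbd1 (6.81 ± 0.00707), Tet3 (6.40 ± 0.0798), Tet2 (3.48 ± 0.242) and Dnmt3b (1.30 ± 0.147) came below. Neighbours in this order had ranges over the 3 libraries that did not overlap, with 2 exceptions. Tet1 and Uhrf1 were level, with a ratio of means of 1.01 and Tet1 above in 2 libraries of 3. The ranges of Uhrf1 and Dnmt3a overlapped, although Uhrf1 was above Dnmt3a within each library. Mbd1 and Tet3 were separated by a ratio of 1.06, which is smaller than what the choice of exon length changes. On the longest annotated transcript in place of merged exons, the levels were 27.7 for Mbd2, 17.9 for Dnmt1, 16.1 for Dnmt3a, 13.0 for Uhrf1, 11.9 for Tet1, 11.6 for Mbd1, 9.80 for Tet3, 6.39 for Tet2 and 1.54 for Dnmt3b. Dnmt3a then stood above Uhrf1 and Tet1, while both ends of the order kept their genes.

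**Figure D3:**
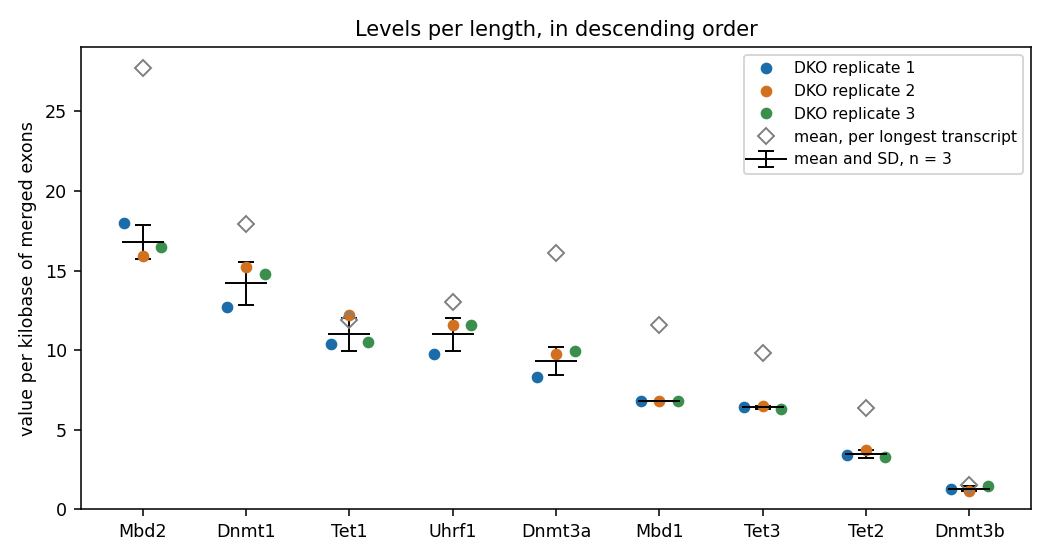
Value per kilobase of merged exons (y axis, linear, from 0) of the 9 genes in descending order, with points for the 3 DKO libraries, bars for mean and SD, and grey diamonds for the mean per kilobase of the longest transcript. Mbd2 is highest and Dnmt3b lowest on both lengths, and Dnmt3a moves most between them among the Dnmt genes.

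Differences between members within a library were taken for 7 pairs set by role, on the scale log2((value + 1) per kilobase of merged exons). Among the writers, Dnmt1 exceeded Dnmt3a by 0.61, 0.64 and 0.58 (mean 0.61 ± 0.031, SD, n = 3), a 1.53-fold ratio per length. On the longest transcript this difference was 0.16, and without division by length it was -0.56, so its size and direction rest on the length used. Dnmt3a exceeded Dnmt3b by 2.50, 2.85 and 2.60 (2.65 ± 0.178), a 6.27-fold ratio per length. A pseudocount of 10 in place of 1 gave 1.60 for that pair and no division by length gave 4.35. Dnmt1 exceeded Uhrf1 by 0.36, 0.38 and 0.34 (0.36 ± 0.019), with 1.15 when not divided by length and 0.23 with a pseudocount of 10. Of the summed level per length of the 3 methyltransferases, Dnmt1 made up 57.2%, Dnmt3a 37.5% and Dnmt3b 5.26% on merged exons, with SDs of 0.87, 0.33 and 0.69 percentage points over the libraries. The longest transcript (chosen after seeing the data) gave 50.4%, 45.2% and 4.36%, and values not divided by length gave 39.3%, 58.2% and 2.50%. Dnmt3b had the smallest share in all 3 cases, while Dnmt1 and Dnmt3a changed places in the last.

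Among the erasers Tet1 was highest per length. Tet2 minus Tet1 was -1.58, -1.70 and -1.67 (-1.65 ± 0.059), and Tet3 minus Tet1 was -0.70, -0.91 and -0.73 (-0.78 ± 0.117). Tet3 exceeded Tet2 by 0.89, 0.78 and 0.94 (0.87 ± 0.081). The order Tet1, Tet3, Tet2 was the same in all 3 libraries, and the shares of their summed level per length were 52.7%, 30.7% and 16.6%. On the longest transcript the differences from Tet1 were smaller, -0.88 for Tet2 and -0.27 for Tet3, in the same direction. Among the readers Mbd2 exceeded Mbd1 by 1.39, 1.22 and 1.28 (1.30 ± 0.087), a 2.46-fold ratio per length, and by 0.24 when values were not divided by length. Each of the 7 differences had the same sign in 3 of 3 libraries. By an exact permutation test that flips signs (two-sided), p was 0.25 for all 7, also after Benjamini-Hochberg adjustment over the 7 pairs, and 0.25 is the smallest value that n = 3 allows.

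Across libraries the members did not move as one. Deviations are given as log2(value + 1) minus the gene's own mean over the 3 libraries. Dnmt1 (-0.16, 0.10 and 0.06), Uhrf1 (-0.16, 0.08 and 0.08) and Dnmt3a (-0.16, 0.07 and 0.09) had nearly the same profile, low in replicate 1. The profile rests on that library, because without it their log2 ranges of 0.26, 0.24 and 0.25 became 0.03, 0.00 and 0.03. Tet1 (-0.08, 0.15 and -0.07) and Tet2 (-0.02, 0.10 and -0.09) had their high value in replicate 2. Dnmt3b (-0.01, -0.13 and 0.15) and Mbd2 (0.10, -0.08 and -0.02) were lowest there, while Tet3 and Mbd1 stayed within 0.02 of their means in every library.

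Counted by library, 4 of 9 members were lowest in replicate 1, 2 in replicate 2 and 3 in replicate 3, and over all genes at a mean of 10 or more the percentages were 38.1%, 27.8% and 34.2%. Of these 4, Dnmt1, Uhrf1 and Dnmt3a were lowest in replicate 1 under every scaling tried, but Tet1 was lowest in replicate 3 once ribosomal RNA and mitochondrial genes were removed. Tet3 and Mbd1, lowest in replicate 3 as deposited, were lowest in replicate 1 after rescaling to equal totals. The highest value was in replicate 1 for 2 members, in replicate 2 for 4 and in replicate 3 for 3, against 31.2%, 34.2% and 34.6% of the same genes. Uhrf1, highest in replicate 3 as deposited, was highest in replicate 2 after both rescalings, and Mbd1 moved from highest in replicate 1 to highest in replicate 2 after equal totals. These shares are near the background. Of the 8 members that reach a mean of 10, 4 had a log2 range above 0.2 over the libraries, against 47.5% of such genes. The median range of all 9 members was 0.23, against 0.24 over all genes. It was 0.19 over the expressed genes, a set that leaves out Dnmt3b. The range of Mbd1, 0.00293, was among the 4 smallest of 10388 genes, and it was 0.04 after rescaling to equal totals.

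**Figure D4:**
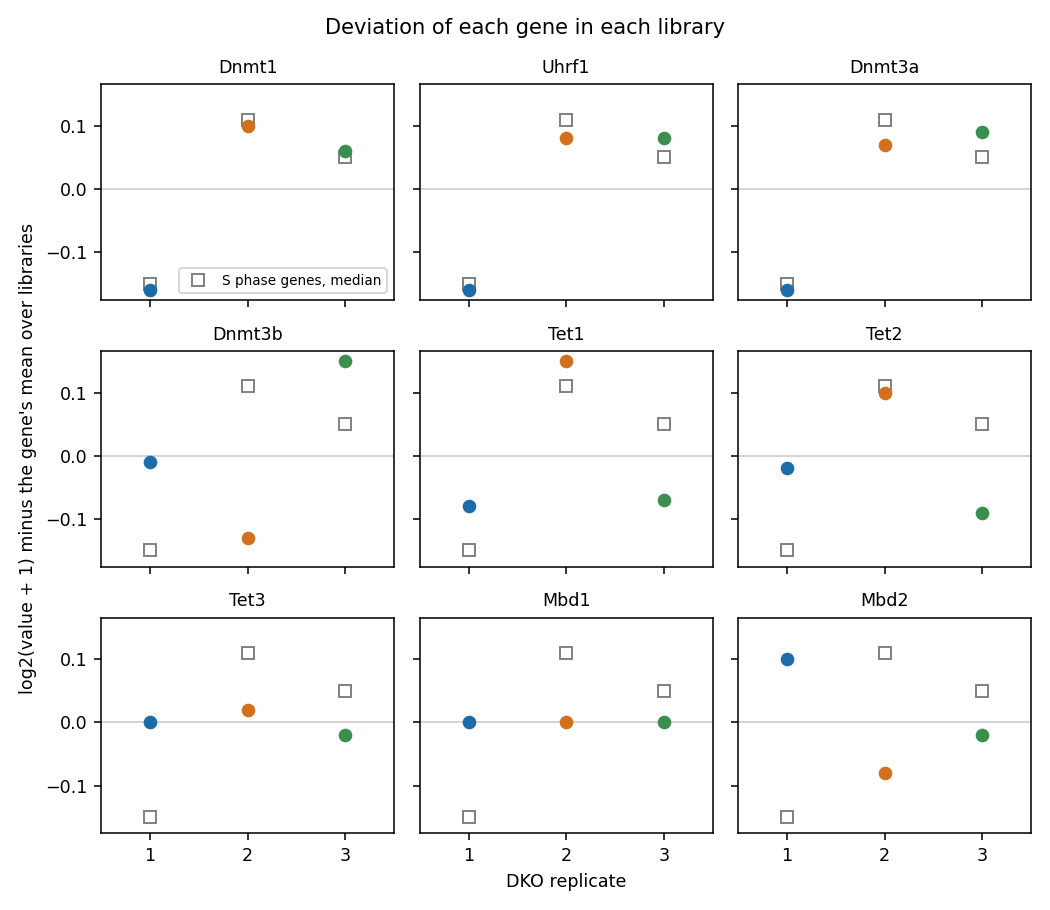
Deviation of each of the 9 genes from its own mean in each DKO library (y axis, log2(value + 1) scale, x axis, replicate), with the median of 18 S phase genes as grey squares in every panel. Dnmt1, Uhrf1 and Dnmt3a lie near the squares, with -0.16 in replicate 1, and the other genes do not follow them.

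Most listed S phase and G2 and M phase genes were, like the maintenance pair, lowest in replicate 1. Of the maintenance partners given below, Usp7, Uhrf2, Pcna and Lig1 were lowest in replicate 3, and Hells and Pclaf in replicate 1. Of 18 S phase genes 15 were lowest in replicate 1, against 38.1% of genes with a mean of at least 10, and their median deviations were -0.15, 0.11 and 0.05. Among them Rrm1, a subunit of the enzyme that makes deoxynucleotides, stood at 128.5, 151.0 and 145.1, and the helicase subunits Mcm6 and Mcm4 at 91.58, 108.3 and 96.99 and at 73.23, 89.31 and 87.84. Of 12 G2 and M phase genes 11 were lowest in replicate 1, with median deviations of -0.20, 0.12 and 0.09. Top2a, a topoisomerase of dividing cells, stood at 217.0, 278.9 and 255.6. Mki67, a marker of cycling cells, stood at 236.4, 301.8 and 282.3, and the ratio of the deposited values of Dnmt1 to it was 0.396, 0.372 and 0.388. Without replicate 1, an alternative chosen after seeing the data, 12 of 18 S phase genes were higher in replicate 2 than in replicate 3. For G2 and M phase genes the count was 6 of 12, and for all expressed genes 5364 of 10388. The median log2 differences (replicate 3 minus 2) were -0.04, -0.0 and -0.01 in the same order. Other lists moved in replicate 1 as well. All 6 macrophage markers were lowest there, 5 of 6 mesenchyme markers and 5 of 7 dental epithelium markers were lowest there, and all 8 interferon-stimulated genes were highest there. The part of cell division, of macrophages, of epithelium and of the interferon-stimulated genes in the low values of Dnmt1, Uhrf1 and Dnmt3a was not tested.

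A profile over 3 libraries does not single out a gene. Likeness was measured as the largest absolute difference between the deviations of 2 genes over the 3 libraries, among the 10388 expressed genes. Nearest to Dnmt1 were Ebp, a sterol isomerase, Celf2, an RNA-binding protein, Btbd3, Gm12669 and Wdr7, at distances of 0.0022 to 0.0043. Nearest to Uhrf1 were Hand2, a transcription factor of jaw mesenchyme, Gm10036, Twf2, Nop10 and Snx21, at 0.0029 to 0.0061. Within 0.05 of Dnmt1 lay 366 of 10387 genes, and within 0.05 of Uhrf1 lay 384. Within 0.02 the counts were 63 and 60. The distances of the named nearest genes lie below the counting error of Dnmt1 and Uhrf1 if the smallest value is 1 read. The order of these genes therefore carries no meaning. Uhrf1 stood at position 58 from Dnmt1, at a distance of 0.019, and Dnmt3a at position 141. Over replicates 2 and 3 alone, also chosen after seeing the data, 45.8% of genes lay within 0.05 of Dnmt1 and 45.7% within 0.05 of Uhrf1.

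Partners of maintenance methylation were measured for 7 of 8 listed genes, all with a mean of at least 10, against 53.6% of all genes. Pcna, the replication clamp to which Dnmt1 binds, stood at 102.2, 112.1 and 98.0, and Usp7, a deubiquitinase that acts on Dnmt1 and Uhrf1, at 167.3, 156.2 and 154.9. Uhrf2, the relative of Uhrf1, stood at 74.72, 75.33 and 71.81, and per kilobase at 8.61 against 11.0 for Uhrf1. Hells, a remodeler needed for methylation of repeats, stood at 39.53, 47.91 and 41.30, and the ligase Lig1 at 50.54, 49.17 and 46.40. Of the 7, Hells and Pclaf were lowest in replicate 1, and 4 were lowest in replicate 3, against 38.1% and 34.2% of genes at a mean of 10 or more.

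Genes that guide de novo methylation were measured for 10 of 11, all with a mean of at least 10, against 53.6% of all genes. Their median was 112. Nsd1, which methylates histone H3 at lysine marks that attract Dnmt3a, stood at 351.7, 384.7 and 356.6. Setd2, the enzyme for the related mark over gene bodies, stood at 236.1, 243.8 and 228.0, and Trim28, a corepressor at imprinted and repeat sequences, at 192.6, 182.0 and 210.3. The lowest means were those of Zfp57 (15.99, 18.13 and 15.44), a zinc finger protein of imprinted regions, and Setdb1 (70.51, 72.04 and 68.32).

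Of the other readers, 7 were analysed, all with a mean of at least 10, against 53.6% of all genes. Their median was 61.8. The zinc finger readers Zbtb4 and Zbtb33 stood at 98.78, 106.3 and 91.45 and at 69.07, 72.39 and 63.50. Mbd4, a glycosylase that repairs mismatches arising from methylcytosine, had the lowest mean, with 19.81, 21.21 and 17.70. Replicate 3 held the lowest value for 6 of these 7 readers, against 34.2% of genes with a mean of at least 10, and for 1 of the 2 Mbd genes described above. The NuRD complex, the histone deacetylase and remodeler that Mbd2 can bring to methylated DNA, was measured for 12 of 12 genes, all with a mean of at least 10. Its remodelers Chd3 and Chd4 stood at 474.2, 576.5 and 550.9 and at 424.1, 388.5 and 439.7, the histone binder Rbbp7 at 276.4, 300.8 and 307.0, and Mta3, with the lowest mean, at 29.42, 30.91 and 30.91.

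Downstream of the Tet enzymes, 8 of 14 genes of base excision and demethylation had a mean of at least 10, near the 53.6% of all genes. Tdg, the glycosylase that removes oxidized methylcytosine, stood at 67.80, 68.81 and 70.96, and Parp1 at 94.82, 112.0 and 100.1. Ogt, a sugar transferase that binds Tet proteins, stood at 307.6, 298.8 and 249.8. The glycosylases Neil1 (5.68, 4.066 and 4.729) and Neil2 (1.544, 1.841 and 1.631) had the lowest deposited means. Supply of substrates was covered by 10 of 10 genes of methyl donor synthesis and 8 of 9 of alpha-ketoglutarate and vitamin C supply, all with a mean of at least 10. Mat2a, which makes the methyl donor S-adenosylmethionine, stood at 187.6, 154.3 and 160.8, and Ahcy, which clears its product, was level, at 68.77, 65.93 and 68.54. The methionine synthase Mtr stood at 69.68, 83.79 and 75.12. Idh1 and Idh2, which make alpha-ketoglutarate, stood at 63.41, 77.20 and 71.98 and at 63.79, 71.40 and 76.36, and Sdha, a subunit of the enzyme that removes succinate, at 206.9, 206.9 and 222.7.

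Germline genes that are known to be silenced by promoter methylation in body cells were scarce. Of 16 listed, 7 were measured and the others were not analysed here. None of the 7 had a mean of at least 10, against 53.6% of all genes, and their median was 0.528, against 12.5 over all genes. Dazl stood at 0.6117, 0.4121 and 0.559, Ddx4 at 0.4952, 0.05494 and 0.04659, and Sycp3 at 0.5243, 0.2198 and 0.1631. Brdt, with 5.068, 4.45 and 4.845, was the highest. Sycp1 was at the smallest value of the library in replicates 1 and 2 and at 2.516 in replicate 3. DNA methylation was not measured in these samples, so a low level says nothing of its state.

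**Figure D5:**
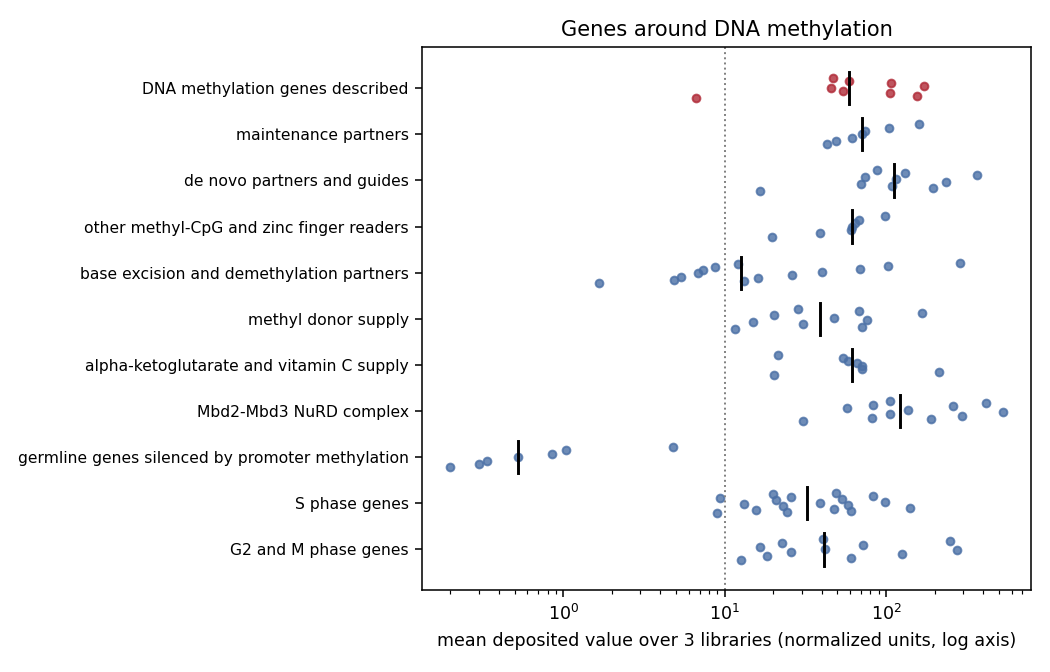
Mean deposited value over 3 DKO libraries (x axis, log scale, normalized units) of each measured gene in the 9 genes described (red) and 10 related lists (blue), with a black bar at each list's median and a dotted line at 10. The germline genes all lie below 10, with a median of 0.528, while the readers and the NuRD genes all lie above it; values are not divided by length.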

How the data were processed

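Bulk RNA sequencing of 3 DKO libraries was used. The authors' deposited values are normalized gene-level signal in a table whose name calls them counts. Reads were aligned with TopHat2 2.0.8 to mm10, per the submitters' processing notes. Counter, annotation, strand setting and low-value filter: not given in the sources used here. Column and library names share a number, which links them. The smallest value was taken as the worth of 1 read where stated. Among values up to 1000 times the smallest, 84.1%, 84.1% and 83.1% lay within 0.1 of a whole multiple, too few overall for count models. Of the 27 member values 25 did, but all except those of Dnmt3b lie above that limit. If the smallest value is 1 read, totals were 33863066, 34900647 and 41477624 reads.

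Computed here, with Python 3.11.15, pandas 2.3.3, numpy 2.4.6 and scipy 1.17.1: log2(value + 1), deviations from gene means, levels per kilobase of merged GENCODE M21 exons (18950 genes matched by symbol) and sign-flip permutation tests. Coordinates are those of GENCODE M21, whose ends lie 1 base before the deposited ends. Exons of Dnmt3a overlap the antisense gene Dnmt3aos by 133 bases and those of Tet2 overlap Gm42567 by 43. Members, lists and pairs were chosen with earlier results of these data known. Named genes were the 9 members and, drawn from the related lists, the 3 highest and 2 lowest means, and the 5 genes nearest to Dnmt1 and to Uhrf1. Ahcy, Pclaf and Dazl lie outside this rule and were picked after seeing their values. The code of the distance measure was checked on simulated data, where it recovered 199 of 199 planted profiles among 10388 genes. Recovery at the spread and counting error of Dnmt1 and Uhrf1 was not tested, so that count says nothing of their nearest genes. Alternatives were other pseudocounts, lengths, scalings and minimums, and each library left out. One gene of the list of other readers is not reported here.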

Additional observations from a re-analysis of the deposited data

How the results depend on the processing

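The 7 differences between members kept their direction with pseudocounts of 0.1 and 10, on the longest transcript (chosen after seeing the data) and with each library left out. Without division by length 6 of 7 did, and Dnmt1 minus Dnmt3a was -0.56, since Dnmt3a has longer merged exons. The number of members with a mean of at least 10, 8 of 9, was 9 at a minimum of 1, 4 at a minimum of 100 and 8 with any library left out or with equal totals. Means moved by less than 1 SD for all 9 members under equal totals. Ranges over libraries depended on single libraries. Without replicate 1 those of Dnmt1, Uhrf1 and Dnmt3a, 0.26, 0.24 and 0.25, were 0.03, 0.00 and 0.03, and without replicate 2 that of Tet1, 0.23, was 0.01. The range of Dnmt3b, 0.28, was 0.12 without replicate 3 and 0.13 with a pseudocount of 10. That of Mbd2, 0.17, was 0.06 without replicate 1. Under equal totals, the ranges of Tet3 and Mbd1 were 0.06 and 0.04. No paired analysis was possible because all libraries belong to 1 group. Depth limits statements on Dnmt3b and the germline genes.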
